A study of Mus musculus with 30 samples.

Results

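Respiratory complex I (NADH:ubiquinone oxidoreductase) is the entry point for electrons from NADH into the mitochondrial respiratory chain, and it pumps protons across the inner membrane as it passes them on to ubiquinone. It is an L-shaped assembly whose N module binds and oxidizes NADH, whose Q module reduces ubiquinone, and whose membrane arm, with a proximal and a distal part, moves protons. Most subunits are nuclear-encoded and carry Nduf names, the core proton-pumping subunits are encoded by mitochondrial DNA, and dedicated assembly factors (Ndufaf proteins among them) help to build the modules without staying in the finished enzyme.

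The genes described here are the rows of the deposited expression table whose symbol is Nduf followed by a, ab1, b, c, s, v or af and a number. The rule matched 45 of 49585 rows, and no measured value entered it. They comprise 36 subunits, 8 Ndufaf assembly factors and Ndufa4, which was first described as a complex I subunit and is now assigned to complex IV. RNA was sequenced from 8-cell mouse embryos labelled BDF1 x BDF1 and cultured in KSOM medium, after knockdown of Yy1 with the siRNA numbered 1 and after knockdown with a control. The 2 groups had 2 libraries of total RNA each, and the labels give neither the number of embryos per library nor whether replicates came from separate collections, so that p-values may measure technical spread alone. The other 26 of the 30 samples of the series were not analysed here. Yy1 encodes YY1, a zinc finger transcription factor. The comparison here is of complex I transcripts with and without Yy1 knockdown in these embryos.

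Values are FPKM, that is, fragments divided by the length of the gene and by the total of the library. The steps between low values returned library totals of 29302489 to 34429515 fragments. Yy1 itself was 10.7-fold lower, with 5.89 and 7.98 FPKM after Yy1 knockdown, against 77.7 and 71.2 FPKM in control libraries (limma adjusted p = 0.0556). All 10 markers of the preimplantation embryo exceeded 1 FPKM on average. None of the 8 sperm or 6 blood cell markers did. Of 12 cumulus and granulosa cell markers, Amhr2 alone exceeded it, at 7.80 and 7.30 FPKM in Yy1 knockdown and 5.35 and 4.74 FPKM in control libraries. Inha, Has2, Fshr, Nr5a1 and Ptx3 of that list were listed at 0 throughout. Without Amhr2 the list summed to 0.782 and 0.979 FPKM in Yy1 knockdown and 1.42 and 0.509 FPKM in control libraries, so the groups overlapped. Bulk libraries cannot tell fewer cells of a type from less RNA per cell.

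Transcripts of nearly all complex I genes were present in 8-cell embryos. Averaged over all 4 libraries, 44 of the 45 reached 1 FPKM, the level required for testing, and the mean levels of all 45 ran from 0.350 to 46.2 FPKM with a median of 9.78 FPKM. Ndufaf6 passed that level only through the control libraries. Ndufaf3, the 1 gene below it, encodes an assembly factor that acts early in joining the Q module to the membrane arm. It had 0.356 and 0.094 FPKM in Yy1 knockdown and 0.320 and 0.632 FPKM in control libraries, from 5 to 36 fragments, and the groups overlapped.

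Against this background of broad expression, a few members stood far lower in the Yy1 knockdown libraries. The interquartile range of the log2 fold changes was -0.43 to 0.13. Groups did not overlap in 13 members that were lower (29.5%, against 18.9% of all genes tested) and 8 that were higher (18.2%, against 21.8%). A log2 fold change under -1 was found in 5 of the 44 members tested, against 1.43% of all genes tested, and no member was higher by that much. Those 5 included Ndufa5 of the Q module, the assembly factor Ndufaf6, Ndufs4 of the N module and Ndufa3 of the proximal membrane arm. Ndufaf6 reached the level required for testing only through the control libraries, so it could enter counts of members only as lower. In limma fitted to all 12120 genes above the filter, 0 genes passed an adjusted p of 0.05, a share of 0.0%, so that 0 of the 44 members passed either. At an unadjusted p under 0.05, limma had 568 genes lower and 511 higher, among them 9 members lower and 2 higher. The 9 make 20.5% of the members tested, against 4.69% of all genes tested in that direction, and the 2 higher members 4.55%, against 4.22%. Without Yy1 knockdown replicate 2, or without either control library, 0 members were higher by this measure. With a filter of 5 FPKM, which Ndufaf6 did not reach, 39 members were tested. Of these 8 were lower at an unadjusted limma p under 0.05, against 5.05% of all genes tested there. When protein-coding genes alone were tested (8216), limma called 14 genes, 0.17% of those tested, of which 12 were lower, 0.146%. Ndufa5, Ndufs4 and Ndufaf6 were 3 of the 12 (limma adjusted p = 0.04, 0.0433 and 0.0433), and their adjusted p reached 0.84 in other settings. With limma-voom on fragments recovered from the FPKM these 3 had adjusted p values of 0.0842, 0.112 and 0.16, and none of them was among the 12 genes it called.

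**Figure D1:**
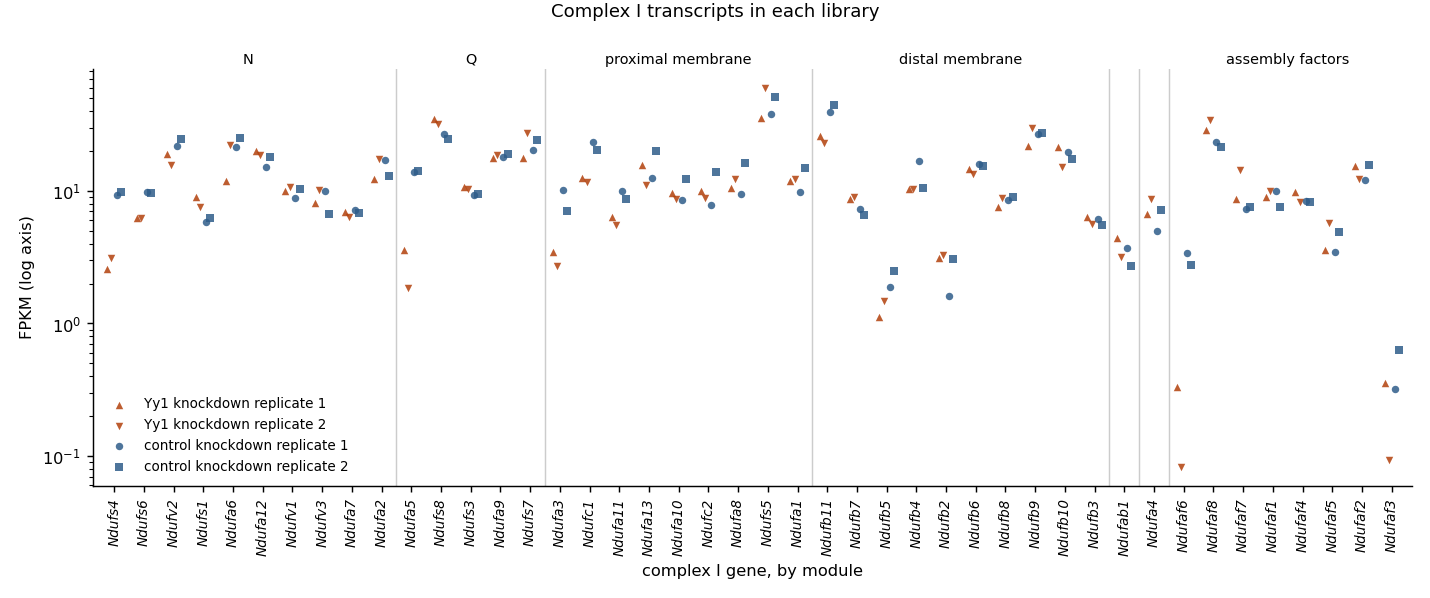
FPKM of the complex I genes reported in each library on a log axis, grouped by module. Triangles are the Yy1 knockdown replicates and circles and squares the control replicates. Ndufs4, Ndufa5, Ndufa3 and Ndufaf6 show the widest gaps between groups that do not overlap. Most genes lie between 5 and 30 FPKM, some with overlapping groups and some without.

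Promoter windows in RefSeq (build GRCm38.p6, from 250 bases before to 50 bases after each annotated start) were found for 40 of the 45 genes, 42 windows in all. They are shown because YY1 is a sequence-specific factor, and whether it acts on these genes directly was not tested. The windows were searched on both strands for AANATGGC, the longer form of the YY1 recognition sequence, where N is any base. The next 8 lines show 30 bases, 5′ to 3′ on the gene's strand, around each match that lies on that strand after the annotated start, with the matched bases in capitals. They are ordered by log2 fold change from the lowest.
Ndufs4 (chr13:114388045-114388074, minus strand): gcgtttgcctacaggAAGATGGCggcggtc
Ndufa3 (chr7:3617384-3617413, plus strand): ccgccaagaacAAGATGGCcgggagtaagt
Ndufc1 (chr3:51408915-51408944, minus strand): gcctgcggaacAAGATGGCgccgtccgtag
Ndufs6 (chr13:73328433-73328462, minus strand): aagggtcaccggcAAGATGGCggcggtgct
Ndufb8 (chr19:44555393-44555422, minus strand): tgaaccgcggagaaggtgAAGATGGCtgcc
Ndufa9 (chr6:126849097-126849126, minus strand): cattgtgggagAAGATGGCggccgccgtcc
Ndufs7 (chr10:80249462-80249491, plus strand): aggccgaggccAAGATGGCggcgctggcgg
Ndufaf8 (chr11:120098933-120098962, plus strand): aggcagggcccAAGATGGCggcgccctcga

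All 8 carried a G in the open place of the motif, and in 6 of the 8 the next base was also a G. Their first matched base lay 11 to 39 bases after the annotated start. Such a forward match after the start was present in 19% of the members' windows and in 3.61% of the 8617 windows of all genes tested. In either orientation and at any position, the motif was present in 14 of the 42 windows, or 33.3%, against 9.68% of the windows of genes tested and 6.05% of all 32851 windows. Among the 9 members with an unadjusted limma p under 0.05 and lower, 7 had a window and 5 of these held the motif: Ndufs4, Ndufa3, Ndufc1, Ndufs6 and Ndufb11. In Ndufb11 it lay upstream, with its first base 211 bases before the start:
Ndufb11 (chrX:20617812-20617841, minus strand): gtcaccaacacAAAATGGCgacgagaagag
Of the 33 other members with a window 9 held it, and these included Ndufaf8 and Ndufs8, the 2 members that were higher at an unadjusted p under 0.05. A match is a description of the letters and not a binding site, and no measurement of YY1 binding was used here. The motif's letters also include ATG, the letters of a start codon. Whether the matches after the annotated start lie where translation begins was not tested.

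**Figure D2:**
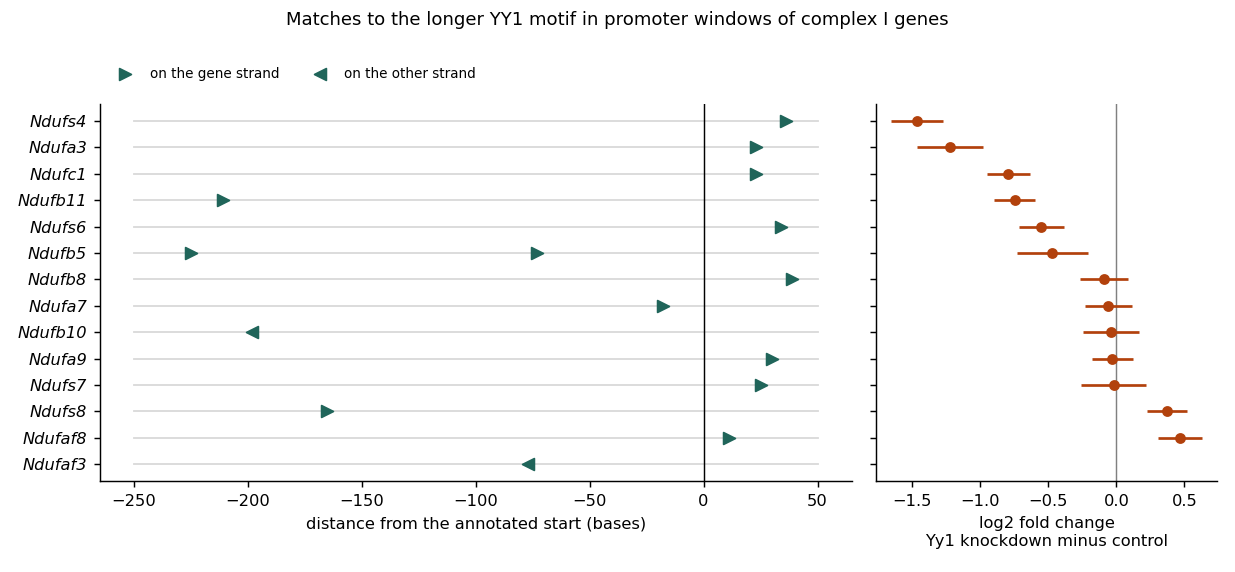
Left, positions of AANATGGC matches relative to the annotated start in the promoter windows of the 14 complex I genes that hold one, with arrows pointing right for the gene strand; right, the log2 fold change of the same genes with its standard error, Yy1 knockdown minus control (Ndufaf3 was not tested). Matches 11 to 39 bases after the start belong both to genes far lower in Yy1 knockdown, such as Ndufs4 at -1.46, and to genes near 0, such as Ndufa9 at -0.03.

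Across all 6866 genes tested that had a window, 796 held the longer motif. Of these 10.7% were lower at an unadjusted limma p under 0.05, against 4.48% of the genes without it, and their median log2 fold change was -0.08 against 0.01. The shorter core GCCAT lies within every longer match, on its opposite strand, so the counts of these motifs are not separate. The core was present in 59.5% of members' windows and 39.4% of the windows of genes tested. Motifs of other factors known for respiratory gene promoters were counted in the same way. The ETS motif CCGGAAG, bound by GABPA, was present in 14.3% of members' windows, against 20.3% of windows of genes tested, and in 0 of the 7 lower members with a window. The NRF1 motif was present in 23.8% against 11.1%, and in 3 of the 7. Each of these 2 motifs was in 6 of the 33 other members with a window. Of genes tested with the NRF1 motif 5.76% were lower at an unadjusted limma p under 0.05, against 5.12% without it. For the ETS motif these shares were 3.8% and 5.63%. Ndufa5, the member with the lowest log2 fold change, has 2 overlapping windows, and the one nearer its gene body is printed whole. Neither held the longer YY1 motif, and the single GCCAT core, read on the other strand, is in capitals. On the gene's strand its letters include ATG too, and whether this is the start codon was not tested.
Ndufa5 (chr6:24527477-24527776, minus strand): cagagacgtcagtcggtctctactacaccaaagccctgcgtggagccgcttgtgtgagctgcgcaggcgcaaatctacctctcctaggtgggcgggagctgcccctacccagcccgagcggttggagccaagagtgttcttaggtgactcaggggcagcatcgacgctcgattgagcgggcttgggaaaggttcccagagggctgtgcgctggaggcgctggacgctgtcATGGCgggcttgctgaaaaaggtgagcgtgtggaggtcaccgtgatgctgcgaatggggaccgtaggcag

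In the N module, which holds the NADH-binding flavin site, Ndufs4 differed most. Ndufs4 encodes an accessory subunit at the joint between the N and Q modules whose loss in mice causes a Leigh-like encephalopathy, and it lies on chromosome 13 from 114287795 to 114388094 (GRCm38.p6, the assembly behind mm10). It had 2.56 and 3.14 FPKM in the Yy1 knockdown libraries, against 9.35 and 9.84 FPKM in the control libraries. The groups did not overlap, and its mean of 2.85 ± 0.405 FPKM was 3.37-fold lower than the control mean of 9.60 ± 0.343 FPKM (SD, n = 2 each). On the log2 scale the difference was -1.46, standard error 0.19 (limma adjusted p = 0.237). Ndufs6, a zinc-binding subunit at the same joint, was at 6.30 and 6.24 FPKM in Yy1 knockdown and 9.74 and 9.57 FPKM in control libraries, 1.54-fold lower and again without overlap (limma adjusted p = 0.521).

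The remaining N module genes varied less. Ndufv2, which carries an iron-sulfur cluster next to the flavin site, was at 18.99 and 15.6 FPKM in Yy1 knockdown and 21.9 and 24.6 FPKM in control libraries, lower without overlap (limma unadjusted p = 0.0571). Its span overlaps those of Ankrd12 and Gm23264. Ankrd12 had 5.07 and 5.07 FPKM in Yy1 knockdown and 5.24 and 7.08 FPKM in control libraries. It was thus also lower without overlap (limma unadjusted p = 0.328), while Gm23264 was below the filter. Ndufs1, the large iron-sulfur subunit of the module, stood on the opposite side, at 9.07 and 7.55 FPKM in Yy1 knockdown and 5.86 and 6.19 FPKM in control libraries (limma unadjusted p = 0.0771). Ndufa12, Ndufv1, Ndufv3, Ndufa7, Ndufa2 and Ndufa6 had log2 fold changes from -0.48 to 0.21, and of these Ndufa12 alone had groups that did not overlap, higher. Ndufv1, which binds NADH and the flavin, is one of them: it had 10.02 and 10.7 FPKM in Yy1 knockdown and 8.85 and 10.3 FPKM in control libraries. By module, 6 of 10 genes were lower by fitted log2 fold change, with a median of -0.05. Without Yy1 knockdown replicate 1 that median was 0.0439.

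The Q module held the lowest log2 fold change of all members. Ndufa5, a small accessory subunit of the matrix arm, lies on chromosome 6 from 24518662 to 24527690. It had 3.61 and 1.85 FPKM in the Yy1 knockdown libraries, against 13.96 and 14.07 FPKM in the control libraries, from 56 to 496 fragments. Its mean of 2.73 ± 1.24 FPKM was 5.13-fold lower than the control mean of 14.01 ± 0.0778 FPKM (SD, n = 2 each). The control libraries were almost equal, and both Yy1 knockdown libraries lay far below them (log2 fold change -2.05, standard error 0.27, limma adjusted p = 0.237).

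Ndufs8, a core subunit, carries iron-sulfur clusters near the end of the electron path. It stood on the other side of 0 from Ndufa5, at 34.8 and 31.9 FPKM in Yy1 knockdown and 26.8 and 24.4 FPKM in control libraries (log2 fold change 0.37, limma adjusted p = 0.556). Ndufs3 was at 10.7 and 10.4 FPKM in Yy1 knockdown and 9.31 and 9.43 FPKM in control libraries. Ndufa9 and Ndufs7 had log2 fold changes of -0.03 and -0.02. Genes of 1 module thus stood on both sides of 0, and the module's median was -0.02 over 6 genes. Leaving out Yy1 knockdown replicate 1 gave 0.0727, and leaving out control knockdown replicate 2 gave 0.0511.

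In the proximal membrane arm, next to the ubiquinone site, 3 genes were lower at an unadjusted limma p under 0.05 and 6 showed overlapping groups. Ndufa3, a small single-pass membrane subunit on chromosome 7 from 3617347 to 3620165, had 3.45 and 2.70 FPKM in Yy1 knockdown, against 10.1 and 7.07 FPKM in control libraries. It was 2.79-fold lower (log2 fold change -1.22, standard error 0.24, limma adjusted p = 0.462). Ndufc1, another small membrane subunit, had 12.5 and 11.8 FPKM in Yy1 knockdown, against 23.3 and 20.4 FPKM in control libraries, from 515 to 1198 fragments. It was 1.80-fold lower with a standard error of 0.16 on a log2 fold change of -0.79 (limma adjusted p = 0.462). Ndufa11, at 6.39 and 5.55 FPKM in Yy1 knockdown and 9.97 and 8.68 FPKM in control libraries, was 1.56-fold lower. It encodes a membrane subunit that touches complex III in mammalian respiratory supercomplexes. None of these 3 genes had overlapping groups.

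The other proximal genes were Ndufs5, Ndufa1, Ndufa8, Ndufa10, Ndufa13 and Ndufc2. Control libraries themselves differed in this module. Ndufa13, also known as GRIM-19, was at 15.6 and 11.05 FPKM in Yy1 knockdown and 12.5 and 20.1 FPKM in control libraries, and Ndufc2 at 9.96 and 8.83 FPKM in Yy1 knockdown and 7.78 and 13.9 FPKM in control libraries. Ndufs5, the member with the highest mean level, had 35.2 and 60.2 FPKM in Yy1 knockdown and 37.96 and 51.2 FPKM in control libraries. In each of these 3 genes the control libraries differed from each other by more than the group means did. The module's median log2 fold change was -0.14 over 9 genes. It was -0.476 without control knockdown replicate 1 and 0.0944 without control knockdown replicate 2, so the choice of control library set its direction.

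In the distal membrane arm, which holds the outermost proton channels, Ndufb11 differed most. Ndufb11, an X-linked gene whose human counterpart is mutated in microphthalmia with linear skin defects, lies on chromosome X from 20615326 to 20617619. It had 25.95 and 23.2 FPKM in the Yy1 knockdown libraries, against 39.6 and 44.3 FPKM in the control libraries, from 616 to 1263 fragments. The groups did not overlap, and the mean of 24.6 ± 1.98 FPKM was 1.71-fold lower than the control mean of 41.9 ± 3.34 FPKM (SD, n = 2 each; limma adjusted p = 0.462). Its span overlaps that of Rbm10, which had 11.6 and 17.2 FPKM in Yy1 knockdown and 14.9 and 17.9 FPKM in control libraries, with overlap between groups.

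Of the other distal genes none had an unadjusted limma p under 0.05. Ndufb5 was at 1.12 and 1.48 FPKM in Yy1 knockdown and 1.90 and 2.49 FPKM in control libraries, lower without overlap. Ndufb7, an intermembrane-space subunit, was at 8.72 and 8.996 FPKM in Yy1 knockdown and 7.34 and 6.56 FPKM in control libraries, higher without overlap. Ndufb2, Ndufb3, Ndufb4, Ndufb6, Ndufb8, Ndufb9 and Ndufb10 had log2 fold changes from -0.33 to 0.36. Over the 10 genes the median was -0.09, with 7 lower and 3 higher by fitted log2 fold change. Ndufab1, the mitochondrial acyl carrier protein that is bound in complex I and also serves fatty acid synthesis, had 4.45 and 3.15 FPKM in Yy1 knockdown and 3.68 and 2.73 FPKM in control libraries. A near-identical copy, Ndufab1-ps, has a row of its own at 5.83 and 5.32 FPKM in Yy1 knockdown and 4.78 and 7.21 FPKM in control libraries, so the division of reads between these rows is uncertain. Ndufa4 was at 6.72 and 8.72 FPKM in Yy1 knockdown and 5.01 and 7.22 FPKM in control libraries. In both Ndufab1 and Ndufa4 the groups overlapped.

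Of the 7 assembly factors tested, 1 was far lower, and the others had log2 fold changes from -0.01 to 0.54. Ndufaf6, a mitochondrial protein required for early steps of complex I assembly, lies on chromosome 4 from 11048991 to 11076237. It had 0.333 and 0.083 FPKM in the Yy1 knockdown libraries, against 3.41 and 2.76 FPKM in the control libraries. These values rest on 14 and 3 fragments in Yy1 knockdown, against 145 and 107 in control libraries. On fragments scaled to library totals, Yy1 knockdown was 14.3-fold lower than control with an exact 95% interval of 8.74 to 24.9 that covers counting error only. Each Yy1 knockdown library was also set against the same 252 pooled control fragments. Replicate 1 gave 9.32 (interval 5.45 to 17.3) and replicate 2 gave 37.4 (12.6 to 183), so these ratios are not separate estimates. The log2 fold change of -1.76 on log2(FPKM + 1), with a standard error of 0.28 (limma adjusted p = 0.382), understates this because the values are near the pseudocount.

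Ndufaf8, whose human counterpart stabilizes NDUFAF5, was higher. It had 28.7 and 34.2 FPKM in Yy1 knockdown, against 23.3 and 21.5 FPKM in control libraries, without overlap (log2 fold change 0.47, limma adjusted p = 0.532). Ndufaf7, whose human counterpart is an arginine methyltransferase, was at 8.74 and 14.3 FPKM in Yy1 knockdown and 7.29 and 7.52 FPKM in control libraries, also without overlap, though the Yy1 knockdown replicates differed widely. The 4 that follow had overlapping groups. Ndufaf1, a chaperone of the membrane arm, had 9.05 and 10.05 FPKM in Yy1 knockdown and 9.91 and 7.59 FPKM in control libraries. Ndufaf2, a paralogue of NDUFA12 that holds its place during assembly, had 15.4 and 12.4 FPKM in Yy1 knockdown and 12.1 and 15.8 FPKM in control libraries. Ndufaf4, which works together with NDUFAF3, had 9.90 and 8.26 FPKM in Yy1 knockdown and 8.44 and 8.32 FPKM in control libraries. Ndufaf5, in humans a hydroxylase of NDUFS7, had 3.56 and 5.76 FPKM in Yy1 knockdown and 3.47 and 4.93 FPKM in control libraries. In Ndufaf5 the replicates of each group differed more than the group means.

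**Figure D3:**
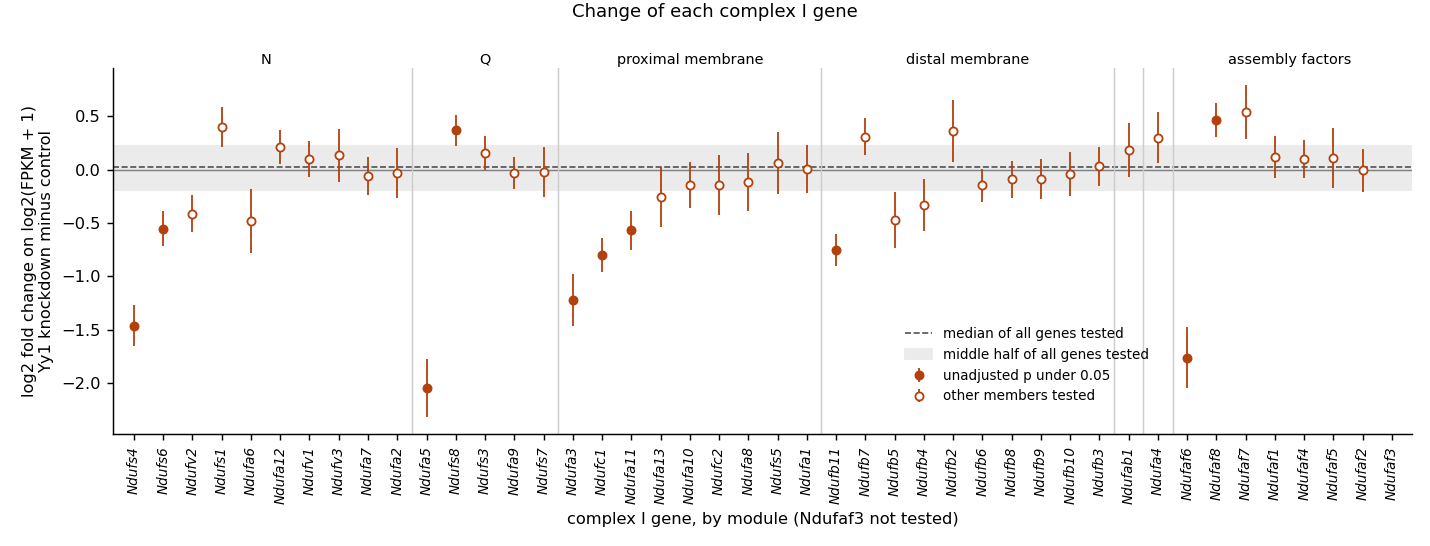
Log2 fold change of the complex I genes reported, on log2(FPKM + 1), Yy1 knockdown minus control, with its standard error; filled points have an unadjusted limma p under 0.05. The dashed line and grey band are the median and interquartile range of all 12120 genes tested, and most members lie in or near the band while Ndufa5, Ndufaf6, Ndufs4 and Ndufa3 lie below -1.

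Set against each other, subunits and assembly factors had medians on opposite sides of 0. The median log2 fold change was -0.09 over 36 subunits and 0.11 over 7 assembly factors, against 0.02 over all genes tested. By fitted log2 fold change 24 of 36 subunits were lower (66.7%) and 2 of 7 assembly factors (28.6%), against 46.8% of all genes tested. Both Yy1 knockdown libraries lay below both controls in 12 subunits (33.3%) and in 1 assembly factor, against 18.9% of all genes tested. They lay above both controls in 6 subunits (16.7%) and in 2 assembly factors, against 21.8% of all genes. The difference between subunits and assembly factors was not tested, and 7 genes are few. With each Yy1 knockdown library set against the control mean, the subunits' median was -0.134 in replicate 1 and -0.0492 in replicate 2, while the 2 control libraries stood at -0.0295 and 0.0295. The N and Q modules were below 0 in Yy1 knockdown replicate 1 alone, at -0.142 and -0.189, and at 0.0439 and 0.0727 in replicate 2. The distal module was at -0.134 and -0.124 in Yy1 knockdown, and the assembly factors at 0.141 and 0.191. For these last 2 sets the Yy1 knockdown libraries stood closer to each other than to either control library. This is partly built in: the 2 controls mirror each other around 0, and both Yy1 knockdown libraries share the control mean as reference. In 21 of the 44 members the control libraries differed from each other by more than the group means did. The same share over all genes tested was not computed, so this count does not set the members apart.

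**Figure D4:**
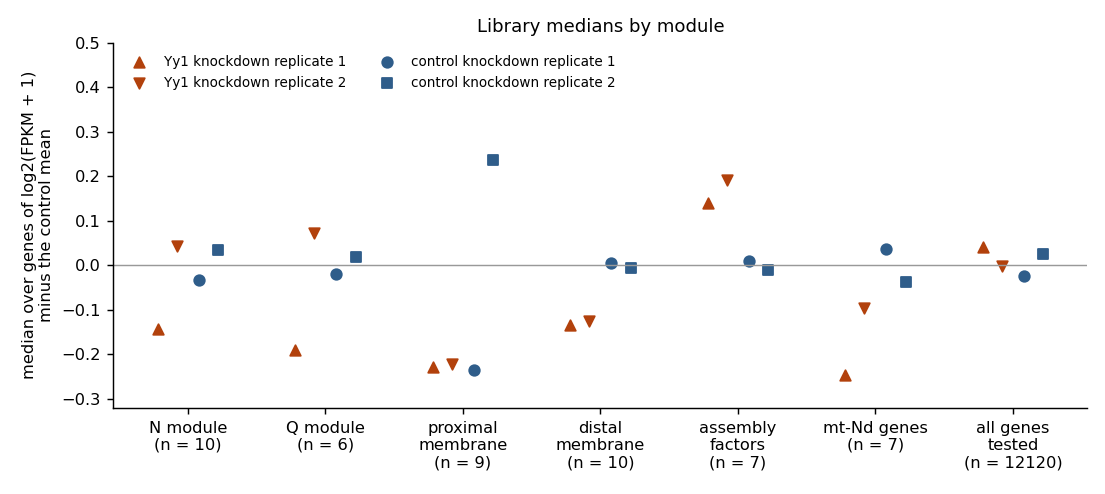
Median over the tested genes of each module of log2(FPKM + 1) minus the control mean, for each library. The Yy1 knockdown replicates sit together below both controls for the distal membrane module and above both for the assembly factors, but apart for the N and Q modules, and the control replicates are widely apart for the proximal membrane module.

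Summed over the 36 subunits, transcript levels were 434.7 and 468.6 FPKM in Yy1 knockdown and 499.6 and 540.0 FPKM in control libraries. For the 8 assembly factors the sums were 76.0 and 85.1 FPKM in Yy1 knockdown and 68.3 and 69.0 FPKM in control libraries. Neither pair of groups overlapped. Ndufaf8 made up the largest part of the assembly factors' sum, at 28.7 and 34.2 FPKM in Yy1 knockdown and 23.3 and 21.5 FPKM in control libraries. Without Ndufaf8 the groups' sums overlapped. The 45 genes lie on 17 chromosomes. Recovered gene lengths of those tested ran from 286 to 8086 bases, and the median was 1235 bases for the 9 lower members and 1501 bases for the other members tested. Across the 44 genes, which share the same 4 libraries, Spearman's rho of the log2 fold change was 0.262 with gene length and 0.0758 with mean FPKM.

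The mitochondrially encoded subunits of complex I were also lower by fitted log2 fold change, all 7 of them, with a median log2 fold change of -0.21. Set against the control mean, Yy1 knockdown replicate 1 had a median of -0.245 over these genes and replicate 2 one of -0.0955, so replicate 1 stood lower. None had an unadjusted limma p under 0.05. In 4 of the 7 (57.1%) both Yy1 knockdown libraries lay below both controls, against 18.9% of all genes tested. All 7 are encoded by the same mitochondrial DNA, so they are not separate observations. mt-Nd6, the 1 subunit read from the light strand, had 1712 and 1729 FPKM in Yy1 knockdown and 2116 and 2010 FPKM in control libraries (limma unadjusted p = 0.0938). mt-Nd4 had 1507 and 1755 FPKM in Yy1 knockdown and 1839 and 1911 FPKM in control libraries. Fragments from the mitochondrial genome made up 6.67% and 6.50% of the Yy1 knockdown libraries and 8.97% and 6.88% of the control libraries. Control knockdown replicate 1 thus had the highest share. Without that library the log2 fold change was -0.22 for mt-Nd6, against -0.26 with it, and -0.23 for mt-Nd4, against -0.21 with it.

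Assembly factors without an Nduf name showed no common direction. Of 10 listed, 9 had a row and 6 passed the filter, 3 lower and 3 higher by fitted log2 fold change, and none had an unadjusted limma p under 0.05. Timmdc1, a membrane-arm assembly factor, had 17.8 and 14.1 FPKM in Yy1 knockdown and 12.5 and 12.2 FPKM in control libraries. Aifm1, which helps to import assembly proteins, had 12.8 and 13.2 FPKM in Yy1 knockdown and 12.9 and 17.4 FPKM in control libraries. Nuclear subunits of complexes II to V were counted in the same way. Of 38 tested, 27 were lower by fitted log2 fold change, with a median of -0.13, and 8 were lower and 0 higher at an unadjusted limma p under 0.05. That is 21.1%, against 22.2% of complex I subunits and 4.69% of all genes tested, so a share of this size was not particular to complex I. Lower by this measure were Sdhb of complex II, at 4.30 and 3.49 FPKM in Yy1 knockdown and 6.98 and 5.84 FPKM in control libraries, and Uqcrc1 of complex III, at 14.6 and 11.5 FPKM in Yy1 knockdown and 21.93 and 21.9 FPKM in control libraries. So were Cox8a of complex IV, at 83.3 and 49.2 FPKM in Yy1 knockdown and 109.1 and 99.6 FPKM in control libraries, and Atp5a1 of complex V, at 68.1 and 75.4 FPKM in Yy1 knockdown and 111.1 and 109.7 FPKM in control libraries. Atp5e, another complex V subunit, was the lowest of those named, at 1.70 and 1.79 FPKM in Yy1 knockdown and 4.93 and 4.21 FPKM in control libraries (log2 fold change -1.02, limma adjusted p = 0.462). Cox7a2 of complex IV stood on the other side, at 22.1 and 21.8 FPKM in Yy1 knockdown and 14.4 and 18.2 FPKM in control libraries.

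**Figure D5:**
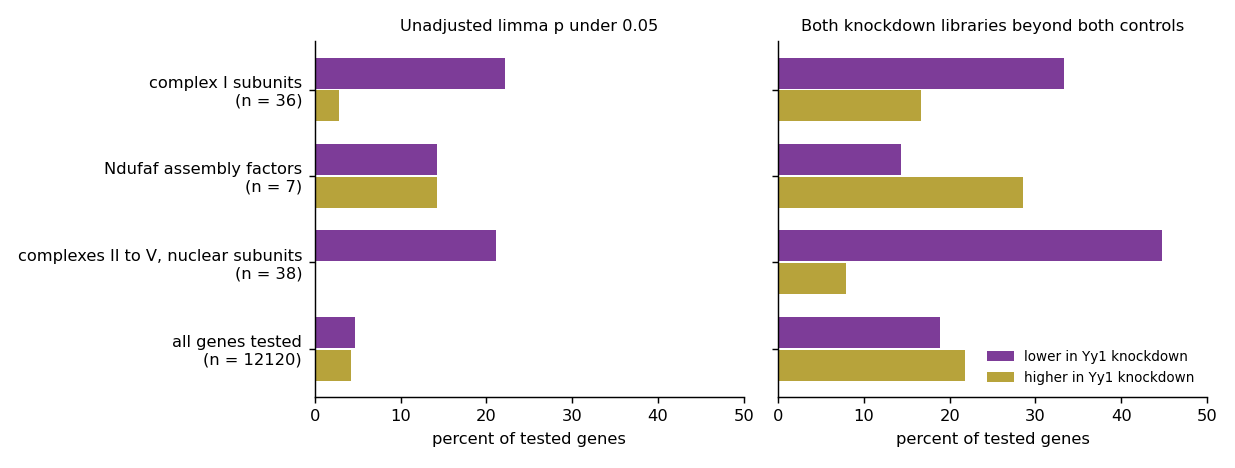
Percent of tested genes with an unadjusted limma p under 0.05 (left) and with both Yy1 knockdown libraries beyond both controls (right), lower and higher in Yy1 knockdown, for complex I subunits, Ndufaf assembly factors, nuclear subunits of complexes II to V and all genes tested. Complex I subunits reach 22.2% lower on the left against 4.69% of all genes, and the nuclear subunits of complexes II to V reach 21.1%.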

How the data were processed

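The authors' deposited table holds FPKM values for 4 libraries. Total RNA was used with the SMART-Seq stranded kit, per the labels' protocols. HISAT2 2.2.1, featureCounts, Trim Galore 0.6.7 and the mm10 build are named, without roles, per the submitters' processing notes. The annotation release, strand setting and multimapping rule were not given in the sources used here, so gene copies and overlapping genes (13 members) are uncertain. Groups and replicates come from the titles. Genes averaging 1 FPKM or more were tested on log2(FPKM + 1) with limma 3.58.1 (R 4.3.3), with group alone, a mean-variance trend and Benjamini-Hochberg adjustment over all genes tested; a fold change on this scale understates low genes. Folds in the text are ratios of mean FPKM.

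Library totals and whole fragments were recovered from the steps between FPKM values (12119 of 12120 genes within 0.02 fragments) and served limma-voom and counting intervals. PCR copies are not independent molecules. The recovery and the fit were tested on simulated data. The members, modules, motifs, lists and alternatives were chosen with earlier results of these data known. Named are all Ndufaf genes, members with an unadjusted p under 0.05, the 3 with the smallest p per module, the 3 highest, those below the filter, and up to 2 per other list; other members appear by range or as examples chosen after their values were seen. Positions and promoter sequences are RefSeq's (GRCm38.p6). For 5 members no promoter window was matched. Counts and medians cover all members, but 1 member that the naming rule includes is not reported here.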

Additional observations from a re-analysis of the deposited data

How the results depend on the processing

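Alternatives were a pseudocount of 0.1, scaling by median ratio or by quantiles, a filter of 5 FPKM or none, fits with a replicate block, without trend or with robust eBayes, protein-coding genes alone, limma-voom, and leaving out each library. Where a library was left out, the lone library of its group is assumed to vary like the other group. With the replicate block 0 members and 0 genes passed in limma. There 9 members were lower at an unadjusted limma p under 0.05, as without it, against 5.03% of all genes tested. The labels do not say that numbers pair libraries, and libraries with the same number deviated together with a correlation of 0.0994 over 12120 genes. Members called numbered 3 with protein-coding genes alone, where fewer genes are tested and variances are fitted anew. They numbered 0 in the other fits that kept all 4 libraries. For Ndufa5, Ndufs4 and Ndufaf6 the unadjusted limma p was 3.41e-05, 6.58e-05 and 6.72e-05 with protein-coding genes alone. In the reported fit it was 0.000411, 0.000394 and 0.0011, at the same log2 fold changes. Over all genes, calls numbered 4 with the filter of 5 FPKM, 1 with robust eBayes, 14 with protein-coding genes alone and 12 with limma-voom, against 0 in the reported fit. Without single libraries the 9 lower members had log2 fold changes from -2.4 to -0.476.

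Members higher at an unadjusted limma p under 0.05 numbered 1 with a pseudocount of 0.1 or limma-voom, 0 with median-ratio scaling or no trend, and 0 to 2 without single libraries, against 2. Non-overlapping lower members numbered 14 to 22 without single libraries, against 13, since 1 library fewer has to separate. The assembly factors' median was 0.0732 with median-ratio scaling and 0.109 to 0.191 without single libraries. The distal module's was -0.132 with median-ratio scaling, -0.0785 with quantile normalization, -0.104 with limma-voom, and -0.134 to -0.0577 without single libraries. Without single libraries the N module ran from -0.174 to 0.0439, the Q module from -0.189 to 0.0727, the proximal module from -0.476 to 0.0944 and all subunits from -0.134 to -0.0492. Ndufaf2 changed sign to 0.000798 with quantile normalization and 0.00833 with limma-voom, and ran from -0.183 to 0.171 without single libraries. Others that changed sign there were Ndufab1 (-0.00994 to 0.382), Ndufaf1 (-0.0495 to 0.294), Ndufaf4 (-0.0175 to 0.217), Ndufaf5 (-0.176 to 0.392), Ndufs5 (-0.317 to 0.44) and Aifm1 (-0.395 to 0.00309). Where no construction explains a shift, the cause was not tested. The 9 lower and 2 higher members kept their sign under every alternative that gave them a value; Ndufaf6 was below the filter of 5 FPKM.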
